A study of Mus musculus with 8 samples.

Results

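The unfolded protein response and the integrated stress response were described here through 10 genes of 47729 measured identifiers. The genes were chosen by name, not by a measured value, but with earlier results of these data known. All 10 were found among the identifiers through their symbols. Hspa5, Hsp90b1, Xbp1, Herpud1 and Dnajb9 were taken as the endoplasmic reticulum (ER) folding arm. Atf4, Ddit3, Trib3, Asns and Chac1 were taken as the integrated stress and amino acid arm. When misfolded proteins collect in the ER, the sensors IRE1, ATF6 and PERK raise the output of chaperones and of the machinery that degrades misfolded proteins. PERK and related kinases such as GCN2, which senses a lack of amino acids, also phosphorylate the translation factor eIF2. That lowers protein synthesis in general but favours translation of the transcription factor ATF4, whose targets make and import amino acids, defend against oxidation and, through CHOP (Ddit3), can promote cell death.

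RNA levels were read in duct cells of the mouse liver, as isolated and through organoid culture. Donors were male C57/B6 mice with adult, healthy livers, and flow cytometry selected cells with EpCAM, an adhesion protein of bile duct epithelium. Cultured cells were held in Matrigel, a basement membrane gel, with organoid medium. The groups were fresh cells (2 libraries, taken at 0 h), cells at 12 h (2 libraries), cells at 24 h (1 library), a library titled 48h whose other labels give 24 h (1 library), and organoids after 6 days (2 libraries). All groups shared strain, sex and tissue, and the labels name no genotype or drug for any of them. Freshly sorted cells were the one starting point, so time in culture and time since isolation cannot be told apart. The labels do not say that replicates came from separate mice or cultures, so p-values reflect only how far these libraries spread, and that spread may be technical. In these bulk samples, fewer cells of a type and less RNA per cell cannot be told apart.

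The unit throughout is RPKM, reads scaled to transcript length and library size, which allows levels of different genes to be compared per length. Effective depth, read from the spacing of low values, was 13827486 to 28456843 reads per library. Genes at 1 RPKM or more numbered 8814 in the 24 h library and 10605 to 11263 in the other 7. Mitochondrial transcripts took 3.92% to 9.87% of summed RPKM. Summed RPKM was 446034 in organoid replicate 1 and 357129 to 369701 in the other 7 libraries. Epcam, which defined the sort, stood between 512.8 and 1175 RPKM in every library, and 6 or 7 of 7 ductal markers reached 1 RPKM in each.

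Markers of hepatocytes, the other main cell of the liver, moved with culture. Their summed level over 10 genes was 978 and 960 RPKM in fresh cells, 38.6 and 51.3 RPKM at 12 h, 49.9 RPKM at 24 h, 165 RPKM in the library titled 48h, and 7.11 and 13.2 RPKM in organoids. In each fresh library 9 of 10 reached 1 RPKM, with 3 and 4 after 12 h, 4 after 24 h, 4 in the titled 48h library, then 1 and 3 in organoids. Fabp1, Cps1 and Cyp2e1 were at or near 0 in the 6 cultured libraries. Cps1 was already low in fresh cells, at 1.01 and 0.563 RPKM. Alb stood at 488.1 and 660.1 in fresh cells and between 23.0 and 58.9 RPKM in the 12 h, 24 h and titled 48h libraries. Fgb was highest in the library titled 48h, at 79.7 RPKM, against 12.2 and 9.15 RPKM in fresh cells. The part of these hepatocyte transcripts in the changes described here was not tested. Immune markers summed to 4.88 to 29.4 RPKM, with the pan-leukocyte gene Ptprc at or near 0 and Cd3e at 0 in all 8 libraries. The macrophage-associated Cd68 stood at 7.004 to 22.8 RPKM in 7 libraries and at 0 at 24 h, Csf1r at 5.21 and 10.9 RPKM in fresh cells and at most 1.92 RPKM in culture, and Lyz2 at up to 7.996 RPKM, in 12 h replicate 2. Endothelial markers summed to at most 3.43 RPKM and mesenchymal markers to at most 14.5 RPKM, with the highest sums of both in fresh cells.

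RefSeq promoters on GRCm38.p6, from 250 bases before the start to 50 after it, were found for all 10 genes and searched on both strands for known response elements. The ER stress element, CCAAT and CCACG with 9 bases of any kind between them, bound by ATF6 with the factor NF-Y, was present in 39 of 32851 promoters (0.119%) and in 2 of the 10, Hspa5 and Hsp90b1. The amino acid response element TGATGNAAN, of the kind bound by ATF4 with a C/EBP partner, was present in 3.95% of promoters and in 4 of the 10, Herpud1, Trib3, Asns and Chac1. Its stricter form TTGCATCA, whose reverse complement lies within the same match, was in 0.895% of promoters and in Herpud1 and Chac1. The promoters shown are those with an ER stress element, Asns and Chac1 from the amino acid side, and Herpud1, which held both kinds. Capitals mark the matches to the amino acid response element and to either form of the ER stress element, and each sequence runs 5′ to 3′ on the strand of its gene.
Hspa5, chr2:34771840-34772139, plus strand: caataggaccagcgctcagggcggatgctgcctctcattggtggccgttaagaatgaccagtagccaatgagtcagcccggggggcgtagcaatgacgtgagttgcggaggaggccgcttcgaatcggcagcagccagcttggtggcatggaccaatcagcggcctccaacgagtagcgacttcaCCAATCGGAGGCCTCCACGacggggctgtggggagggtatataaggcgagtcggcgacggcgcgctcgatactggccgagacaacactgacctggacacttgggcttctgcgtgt
Hsp90b1, chr10:86705395-86705694, minus strand: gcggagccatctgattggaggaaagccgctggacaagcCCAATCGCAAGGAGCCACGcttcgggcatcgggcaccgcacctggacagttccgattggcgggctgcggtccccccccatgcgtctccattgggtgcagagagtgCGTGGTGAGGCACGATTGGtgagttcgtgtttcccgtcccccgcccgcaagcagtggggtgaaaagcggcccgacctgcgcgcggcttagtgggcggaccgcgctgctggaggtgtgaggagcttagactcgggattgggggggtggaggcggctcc
Herpud1, chr8:94386179-94386478, plus strand: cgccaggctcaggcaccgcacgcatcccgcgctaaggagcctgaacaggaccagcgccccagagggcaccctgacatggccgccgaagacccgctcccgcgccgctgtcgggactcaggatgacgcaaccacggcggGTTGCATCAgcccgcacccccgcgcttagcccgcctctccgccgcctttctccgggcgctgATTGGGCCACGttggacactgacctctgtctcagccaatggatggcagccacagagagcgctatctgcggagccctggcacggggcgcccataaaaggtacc
Asns, chr6:7693160-7693459, minus strand: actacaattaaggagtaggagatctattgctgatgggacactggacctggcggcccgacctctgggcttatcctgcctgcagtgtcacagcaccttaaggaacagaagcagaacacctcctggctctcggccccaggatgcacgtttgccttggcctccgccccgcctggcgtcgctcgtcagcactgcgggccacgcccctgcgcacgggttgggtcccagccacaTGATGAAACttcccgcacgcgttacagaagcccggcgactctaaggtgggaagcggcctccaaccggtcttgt
Chac1, chr2:119350992-119351291, plus strand: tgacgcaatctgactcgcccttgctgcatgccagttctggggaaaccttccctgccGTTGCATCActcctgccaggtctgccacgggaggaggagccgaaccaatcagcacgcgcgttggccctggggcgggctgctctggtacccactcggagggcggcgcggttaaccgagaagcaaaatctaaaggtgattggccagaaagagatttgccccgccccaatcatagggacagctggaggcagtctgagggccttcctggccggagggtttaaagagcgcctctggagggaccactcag

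The match in Hspa5 began at position -65 from the RefSeq start. Hsp90b1 held 2 matches, 1 on each strand, at -212 and -107. Herpud1 held an amino acid response element at -113 and, at -52, the second ER stress element, ATTGG and CCACG with 1 base between them, a form added to the search after the sequence had been seen and present in 12 of 32851 promoters (0.0365%). Asns had its amino acid response element at -23 and Chac1 at -194, while that of Trib3 began at position 14. The short motif CCACG, which lies inside both ER stress elements, was in 32.8% of all promoters and 7 of the 10. The unfolded protein response element TGACGTGG was in 0.676% of promoters and none of the 10. Xbp1, Ddit3, Dnajb9 and Atf4 held none of the longer elements in this window. These matches describe letters in this window only, and binding was not measured.

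Across the 8 libraries, 7 of the 10 genes had their highest value in a fresh library, a share not computed over all genes. In organoids 7 of the 10 were lower than in fresh cells by the test across all genes, beside 4.94% of them. None of the 10 was higher, beside 5.15% of all genes. At 12 h only Herpud1 and Chac1 had fallen by that test, beside 3.72% of all genes. Trib3 was the one gene of the 10 that passed between organoids and 12 h, where 2% of all genes passed. Hsp90b1, Xbp1 and Ddit3 passed in no comparison.

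**Figure D1:**
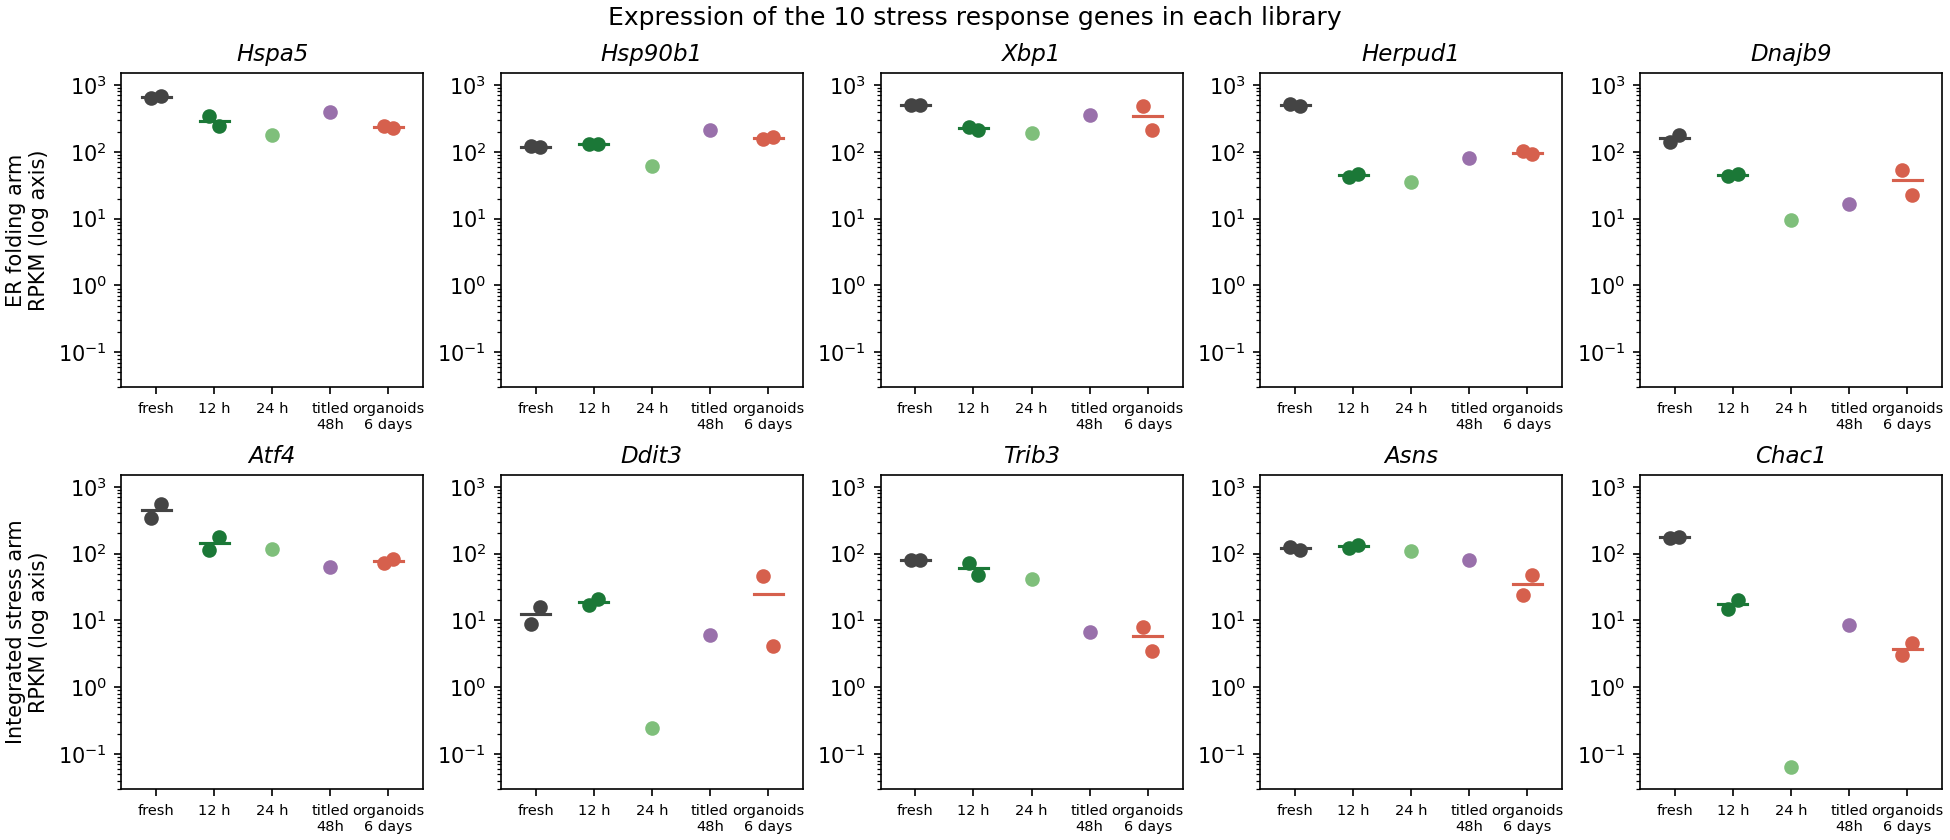
RPKM of each of the 10 genes in every library, on a log axis, with groups in order of the times in their titles. Points are libraries and bars the mean of 2 libraries, and the upper row is the ER folding arm. Herpud1 and Chac1 drop between fresh cells and 12 h, Trib3 is below 10 RPKM in the library titled 48h and in organoids, and Ddit3 and Chac1 are under 1 RPKM in the 24 h library.

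Among the ER folding genes, Hspa5 (BiP, the main Hsp70 chaperone of the ER lumen, which also holds the stress sensors inactive; chr2:34771970-34777547, plus strand) measured 649.5 and 683.5 RPKM in fresh cells, 339.4 and 246.9 after 12 h, 177.2 after 24 h, 392.6 in the titled 48h library, then 240.4 and 227.0 in organoids. Both fresh libraries were above all 6 cultured ones, and the 24 h library was lowest. Hsp90b1 (GRP94, the Hsp90 chaperone of the ER; chr10:86690209-86705509, minus strand) measured 120.8 and 116.2 RPKM in fresh cells, 132.5 and 130.1 after 12 h, 62.3 after 24 h, 214.5 in the titled 48h library, then 154.7 and 163.9 in organoids. It was the only one of the 5 that was not highest in fresh cells, and both organoid libraries exceeded both fresh ones.

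Dnajb9 (ERdj4, a J-domain partner of BiP in ER-associated degradation; chr12:44205559-44210326, minus strand) measured 142.3 and 176.3 RPKM in fresh cells, 43.0 and 45.9 after 12 h, 9.58 after 24 h, 16.5 in the titled 48h library, then 52.6 and 22.8 in organoids. Every cultured library was below both fresh ones, and the organoid replicates lay on either side of the 12 h pair. Herpud1 (a membrane protein that assembles the degradation complex; chr8:94386438-94395377, plus strand) measured 522.5 and 483.7 RPKM in fresh cells, 42.7 and 46.7 after 12 h, 35.1 after 24 h, 81.0 in the titled 48h library, then 102.0 and 91.7 in organoids. Its replicates were close together, and organoids stood between 12 h and fresh cells without overlap. Xbp1 (the transcription factor whose mRNA is spliced by IRE1; chr11:5520659-5525893, plus strand) measured 496.9 and 504.9 RPKM in fresh cells, 236.0 and 214.8 after 12 h, 191.0 after 24 h, 359.6 in the titled 48h library, then 486.7 and 211.9 in organoids. Organoid replicate 1 was near the fresh level and replicate 2 at the 12 h level. Spliced and unspliced Xbp1 are not separated in these gene values.

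In the integrated stress arm, Atf4 (the transcription factor at its centre, controlled largely at translation; chr15:80255184-80257541, plus strand) measured 338.6 and 557.3 RPKM in fresh cells, 114.5 and 177.8 after 12 h, 117.4 after 24 h, 63.8 in the titled 48h library, then 71.9 and 82.9 in organoids. The fresh libraries were highest, and those at 12 h were above both organoid libraries. Ddit3 (CHOP, a pro-apoptotic C/EBP family factor; chr10:127290774-127296288, plus strand) measured 8.95 and 16.1 RPKM in fresh cells, 17.2 and 20.8 after 12 h, 0.243 after 24 h (8 reads), 6.13 in the titled 48h library, then 46.0 and 4.16 in organoids. The organoid replicates were its highest library and its second lowest. Per length it was the lowest of the 10 on average, at 14.9 RPKM.

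Trib3 (a pseudokinase induced by ATF4 and CHOP; chr2:152337422-152344032, minus strand) measured 81.3 and 80.8 RPKM in fresh cells, 73.4 and 48.1 after 12 h, 41.5 after 24 h, 6.66 in the titled 48h library, then 8.03 and 3.49 in organoids. It was at 41.5 RPKM or more in the fresh, 12 h and 24 h libraries and under 10 RPKM in the other 3. Asns (asparagine synthetase; chr6:7675169-7693254, minus strand) measured 127.4 and 114.0 RPKM in fresh cells, 121.6 and 136.1 after 12 h, 107.9 after 24 h, 80.4 in the titled 48h library, then 23.7 and 47.1 in organoids. Fresh and 12 h libraries overlapped, and both organoid libraries were below the other 6. Chac1 (a gamma-glutamylcyclotransferase that degrades glutathione; chr2:119351229-119354381, plus strand) measured 173.8 and 176.0 RPKM in fresh cells, 14.6 and 20.0 after 12 h, 0.0636 after 24 h, 8.65 in the titled 48h library, then 3.003 and 4.56 in organoids. The 24 h value stands for 2 reads, under the 0.0955 RPKM that 3 reads would give, so no fold is given for it. Coordinates of the genes are those of GENCODE M21 on GRCm38.

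Chac1 had the widest range of the 10 and Xbp1 the narrowest, 2.64-fold between its highest and lowest libraries. Hspa5 and Hsp90b1 spanned 3.86-fold and 3.45-fold, Asns 5.73-fold and Atf4 8.74-fold. Herpud1, Dnajb9 and Trib3 spanned 14.9-fold, 18.4-fold and 23.3-fold. The lowest library was the 24 h one for 7 of the 10, namely the 5 folding genes, Ddit3 and Chac1. The share of all genes lowest in that library was not computed. It also had the fewest genes at 1 RPKM or more, 8814.

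The first comparison was of cells at 12 h with fresh cells, on log2(RPKM + 1), a scale that understates changes of low genes. Herpud1 fell to 44.7 ± 2.81 RPKM at 12 h, against 503.1 ± 27.4 RPKM in fresh cells (SD, n = 2 each), which was 11.3-fold lower (log2 change -3.46, SE 0.299, limma adjusted p = 0.0189). Chac1 fell to 17.3 ± 3.78 RPKM at 12 h, against 174.9 ± 1.57 RPKM in fresh cells, 10.1-fold lower (log2 change -3.28, SE 0.385, limma adjusted p = 0.0198). Thus 1 gene of each arm fell, 2 of 10 in all and none rose, while 6.81% of the 12900 genes tested passed, 3.72% lower and 3.09% higher. Of all genes, 398 were called higher and 480 lower, 300 and 839 with libraries centred on their medians, and 154 and 433 at equal summed RPKM.

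The other 8 did not pass at 12 h. Dnajb9 had a log2 change of -1.81 (adjusted p = 0.0611), Atf4 -1.60 (0.0613), Hspa5 -1.20 (0.0778) and Xbp1 -1.15 (0.161). For Trib3 the log2 change was -0.44 with a 95% interval of -1.51 to 0.63, and for Asns 0.09 with -0.86 to 1.04. Hsp90b1 had 0.15 (-0.56 to 0.85) and Ddit3 0.61 (-1.72 to 2.94). In 7 of the 10 both 12 h libraries were below both fresh ones, against 23.6% of all genes tested, and in 2 both were above, against 38.6%. The groups thus stood apart in 9 of the 10 and in 62.2% of all genes. Genes averaging 5 RPKM or more had a median log2 change of 0.40, so changes relative to that bulk are lower by this amount, -3.86 for Herpud1 and -3.68 for Chac1. With libraries centred on their medians, Hsp90b1 was at -0.22 and Asns at -0.27.

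Leaving out either fresh library or 12 h replicate 1 ended the calls of Herpud1 and Chac1 at 12 h, and all others (limma, 0 of 12900 genes at the adjusted threshold, 1672 to 3458 at an unadjusted p under 0.05, 3 to 5 of them among the 10). Without 12 h replicate 2, Chac1 had an adjusted p of 0.0503 and Herpud1 still passed. In the runs without a fresh or 12 h library the fitted changes lay between -3.53 and -3.40 for Herpud1 and between -3.49 and -3.07 for Chac1. Without either organoid library Dnajb9 and Xbp1 also passed, with adjusted p of 0.0417 and 0.0423 for Dnajb9 and 0.0430 and 0.0445 for Xbp1.

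The second comparison was of organoids with the same fresh libraries. It therefore shares its baseline with the first, and values of both are given side by side without a measure of likeness. In the stress arm Chac1 fell to 3.78 ± 1.10 RPKM in organoids, against 174.9 ± 1.57 RPKM in fresh cells (SD, n = 2 each), 46.2-fold lower (log2 change -5.22, SE 0.385, limma adjusted p = 0.00573). Trib3 fell to 5.76 ± 3.21 RPKM in organoids, against 81.0 ± 0.357 RPKM in fresh cells, 14.1-fold lower (log2 change -3.69, SE 0.449, adjusted p = 0.0110). Atf4 fell to 77.4 ± 7.79 RPKM in organoids, against 447.9 ± 155 RPKM in fresh cells (log2 change -2.48, adjusted p = 0.0181). Asns fell to 35.4 ± 16.5 RPKM in organoids, against 120.7 ± 9.47 RPKM in fresh cells (log2 change -1.82, adjusted p = 0.0385).

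In the folding arm Herpud1 stood at 96.8 ± 7.29 RPKM in organoids, against 503.1 ± 27.4 RPKM in fresh cells, 5.19-fold lower (log2 change -2.37, adjusted p = 0.0119). Dnajb9 fell to 37.7 ± 21.04 RPKM in organoids, against 159 ± 24.1 RPKM in fresh cells (log2 change -2.16, adjusted p = 0.0336). Hspa5 fell to 233.7 ± 9.5 RPKM in organoids, against 666.5 ± 24.0 RPKM in fresh cells, 2.85-fold lower (log2 change -1.51, adjusted p = 0.0394). Hsp90b1 averaged 159.3 ± 6.5 RPKM in organoids and 118.5 ± 3.26 RPKM in fresh cells and did not pass (log2 change 0.42, 95% interval -0.28 to 1.13). Xbp1 (-0.64, -1.71 to 0.44) and Ddit3 (0.26, -2.07 to 2.59) did not pass either. So 7 of 10 were called lower, 3 of the folding arm and 4 of the stress arm, while 10.1% of all genes tested passed, 4.94% lower and 5.15% higher.

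Over all genes, 664 were called higher and 637 lower, 556 and 836 with centred libraries, and 355 and 572 at equal summed RPKM. Both organoid libraries were below both fresh ones in 8 of the 10, against 26.6% of all genes, and above in Hsp90b1 alone, against 38.1%. That was 9 of the 10 without overlap, beside 64.7% of all genes. The median log2 change of genes at 5 RPKM or more was 0.27. Without either fresh library no gene passed (limma, 0 of 12900 at the adjusted threshold, 2163 and 1847 at an unadjusted p under 0.05, 7 of the 10 each time). Without organoid replicate 1, Hspa5, Atf4 and Asns lost their calls (adjusted p 0.0703, 0.0744 and 0.0621), and without replicate 2 Hspa5 did (0.0538). Without either 12 h library, which enter the estimate of spread, Hspa5, Dnajb9 and Asns were at adjusted p of 0.0542 to 0.0618. Chac1, Trib3 and Herpud1 passed in every run that kept both fresh libraries.

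**Figure D2:**
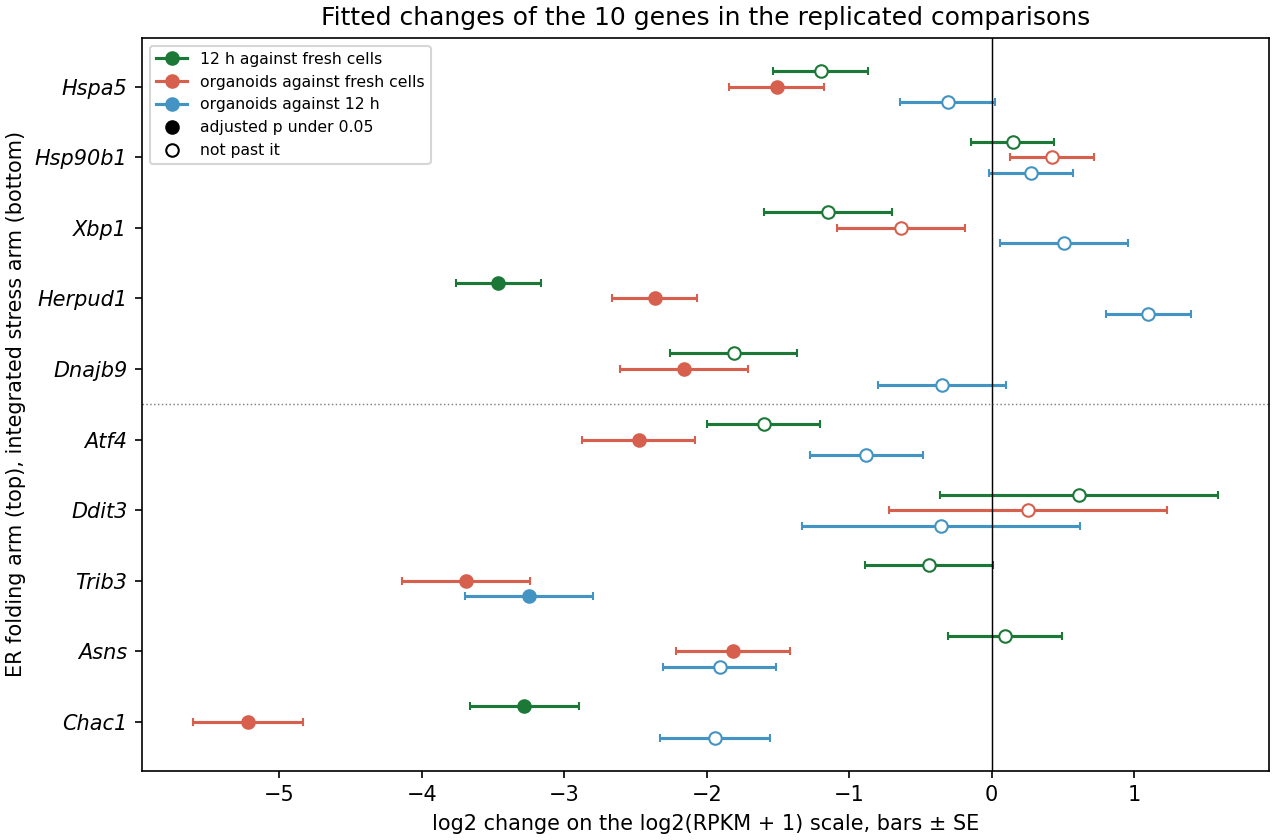
Fitted log2 change of each of the 10 genes in the 3 replicated comparisons, with bars of 1 standard error and filled points where the limma adjusted p was under 0.05. The folding arm is above the dotted line. Filled points are 2 at 12 h, 7 in organoids against fresh cells and 1, Trib3, in organoids against 12 h.

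The third comparison, of organoids with cells at 12 h, gave 1 call among the 10. Trib3 fell to 5.76 ± 3.21 RPKM in organoids, against 60.8 ± 17.9 RPKM at 12 h, 10.55-fold lower (log2 change -3.25, SE 0.449, limma adjusted p = 0.0302), where 2% of all genes passed, 0.62% lower and 1.38% higher. All 5 stress genes had fitted changes below 0, with -1.94 for Chac1 (adjusted p = 0.0614), -1.91 for Asns (0.0669), -0.88 for Atf4 (0.294) and -0.35 for Ddit3 (0.876). In the folding arm Herpud1 was at 1.10 (0.115), Xbp1 at 0.51 (0.564) and Hsp90b1 at 0.28 (0.637), while Hspa5 was at -0.31 (0.640) and Dnajb9 at -0.35 (0.704).

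Both organoid libraries were below both 12 h libraries in 5 of the 10 and above in 2, Herpud1 and Hsp90b1, against 24.1% and 20.8% of all genes. Without overlap were therefore 7 of the 10, beside 44.9% of all genes. Genes at 5 RPKM or more had a median log2 change of -0.17. Over all genes, 178 were called higher and 80 lower, and 283 and 74 with centred libraries. The Trib3 call was lost when any single replicate was left out, with adjusted p between 0.0506 and 0.178 and log2 changes between -3.75 and -2.74. Of those 6 runs, 5 gave 0 calls among the 12900 genes in limma (1679 to 2777 at an unadjusted p under 0.05, 3 to 6 of the 10), and the run without organoid replicate 2 called Asns (adjusted p = 0.0439). Without organoid replicate 1 the sign of Xbp1 turned, to -0.09, and without replicate 2 those of Dnajb9 and Ddit3 did, to 0.24 and 1.24.

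The 24 h library and the library titled 48h are single libraries with no replicate check. At 24 h, Herpud1 was at 35.1 RPKM, 14.3-fold below the fresh mean, and Dnajb9 at 9.58 RPKM, 16.6-fold below it, while Asns at 107.9 RPKM was 1.12-fold below it. The median log2 difference from the fresh mean was -1.91 over the folding arm and -1.88 over the stress arm, beside -0.07 over all genes tested. In the library titled 48h the same medians were -0.76 and -2.75, beside 0.30 over all genes, with Chac1 20.2-fold, Trib3 12.2-fold and Atf4 7.02-fold below the fresh mean and Hsp90b1 1.81-fold above it. Trib3 was at 41.5 RPKM in the 24 h library and 6.66 RPKM in the library titled 48h, whose place in time is uncertain because its other labels also give 24 h.

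To set the folding arm against the amino acid arm, the mean log2(RPKM + 1) over 5 genes was taken for each arm in each library, with no test since the genes were given. The folding arm averaged 8.29 and 8.33 in fresh cells, 6.85 and 6.77 after 12 h, 5.92 after 24 h, 7.07 in the titled 48h library, then 7.31 and 6.81 in organoids. The stress arm averaged 6.51 and 6.78 in fresh cells, 5.63 and 5.81 after 12 h, 3.89 after 24 h, 4.28 in the titled 48h library, then 4.31 and 3.80 in organoids. Both arms were highest in fresh cells, and the folding arm was lowest at 24 h. The stress arm lay between 3.80 and 4.31 in the 24 h library, the one titled 48h and the organoids.

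The gap between the arms, folding minus stress on this scale, was 1.67 ± 0.157 in fresh cells and 1.09 ± 0.181 at 12 h (SD, n = 2 each), 2.03 after 24 h, 2.79 in the titled 48h library, then 3.01 ± 0.00576 in organoids (SD, n = 2). In organoids the arms themselves had SDs of 0.356 (folding) and 0.362 (stress), since both were higher in replicate 1. The small SD of the gap therefore does not show how closely single genes repeated. Ddit3, for example, was at 46.0 and 4.16 RPKM in the 2 organoid libraries. The organoid libraries and the one titled 48h had wider gaps than the other 5. The gap at 24 h rests on Ddit3 and Chac1, which were near 0 there. With the median in place of the mean over each arm it was 2.02 in fresh cells, 1.13 after 12 h, 0.58 after 24 h, 4.48 in the titled 48h library, then 3.77 in organoids.

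**Figure D3:**
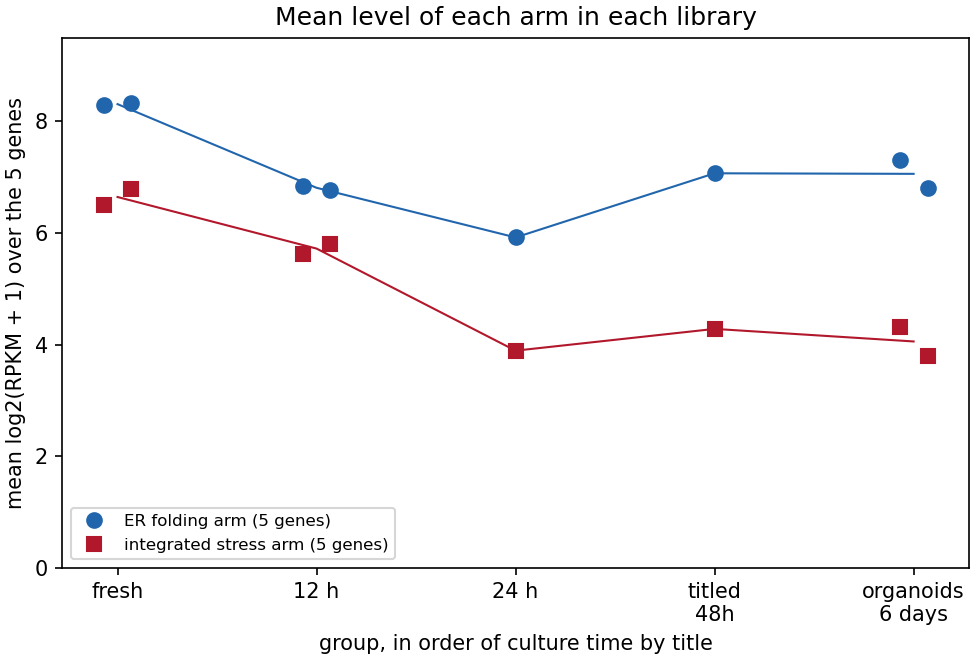
Mean log2(RPKM + 1) over the 5 ER folding genes (circles) and the 5 integrated stress genes (squares) in each library, with lines through the group means. The squares end between 3.80 and 4.31 in organoids and the circles between 6.81 and 7.31.

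Likeness between the 10 profiles was taken as the root mean square difference of log2(RPKM + 1) over the 8 libraries, after centring each gene on its own mean. Hspa5 and Xbp1 were each other's nearest, at 0.46, and Xbp1 was also nearest to Hsp90b1, at 0.62. Herpud1 was nearest to Dnajb9 (0.82) and Trib3 to Atf4 (1.04). For 5 of the 10 the nearest gene was in the same arm and for 5 in the other, among them Asns, nearest to Hspa5 at 0.83, and Chac1, nearest to Dnajb9 at 1.35. Among 6861 other protein-coding genes averaging 5 RPKM or more, those nearest to Hspa5 were Spty2d1 (0.15), Tuba1c (0.18), Fbxo34 (0.20) and Pld1 (0.20). Those nearest to Asns were Socs1 (0.18), Eif6 (0.21), Ankrd11 (0.23) and Elovl7 (0.23).

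Other genes of the same pathways were followed in 7 lists of 126 entries that exclude the 10. Of 19 ER chaperones and folding enzymes other than Hspa5 and Hsp90b1, 3 rose in organoids against fresh cells and none fell, beside 5.15% higher and 4.94% lower among all genes tested. The list median was 0.60, and that of all genes tested 0.17. At equal summed RPKM 2 were called, without Dnajc10, and with no filter on low values Ppib alone was called. Sdf2l1, an ER protein found with BiP, measured 72.9 and 58.2 RPKM in organoids, against 7.10 and 3.27 RPKM in fresh cells (log2 change 3.49, limma adjusted p = 0.0211). Dnajc10 (ERdj5, a disulfide reductase) measured 63.4 and 63.3 RPKM in organoids, against 17.2 and 16.3 RPKM in fresh cells (1.86, 0.0297). Ppib (cyclophilin B, a prolyl isomerase) measured 95.7 and 109.3 RPKM in organoids, against 31.3 and 27.2 RPKM in fresh cells (1.78, 0.0211). At 12 h Ppib alone had risen, to 81.3 and 78.8 RPKM (1.43, 0.0450), a call that did not hold under any of the 3 other scalings. The list median at 12 h was 0.42 beside 0.24 over all genes, 0.05 with centred libraries and 0.25 without fresh replicate 2.

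For degradation and translocation genes, 3 of 23 tested rose in organoids and none fell, beside 5.15% higher and 4.94% lower among all genes, with a median of 0.89. Edem2, a mannosidase-like degradation factor, measured 36.2 and 34.1 RPKM in organoids, against 8.86 and 6.74 RPKM in fresh cells (log2 change 2.05, adjusted p = 0.0453). Spcs3 of the signal peptidase measured 41.8 and 39.3 RPKM in organoids, against 11.03 and 8.03 RPKM in fresh cells (1.99, 0.0286). Sec61b, a subunit of the translocation channel, measured 109.8 and 64.4 RPKM in organoids, against 25.2 and 19.0 RPKM in fresh cells (1.89, 0.0316). With centred libraries 1 was called higher and 1 lower, and at equal summed RPKM 1 was called higher, where Edem2 (adjusted p = 0.0749) and Spcs3 (0.0528) lost their calls. With no filter on low values limma called none of this list in organoids. At 12 h 0 of 23 passed in limma (4 at an unadjusted p under 0.05), and the translocon-associated subunit Ssr2 measured 169.0 and 290.2 RPKM at 12 h, against 137.7 and 138.0 RPKM in fresh cells. The signal peptidase subunit Spcs1 measured 102.2 and 101.4 RPKM at 12 h, against 73.5 and 61.0 RPKM in fresh cells.

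Of 20 stress sensors and regulators, 3 fell at 12 h, beside 3.72% of all genes, and 2 in organoids, beside 4.94%, and none rose. In both comparisons Ppp1r15a was the only one of these that did not pass the filter on low values through fresh cells alone. With centred libraries or quantile normalization 5 were called lower in organoids. Ppp1r15a (GADD34, which recruits the phosphatase that resets eIF2) measured 19.8 and 51.6 RPKM at 12 h, against 234.6 and 320.7 RPKM in fresh cells (log2 change -3.06, adjusted p = 0.0337). Its 12 h call was lost with no filter on low values (limma adjusted p = 0.0904), where only Ern2 and Creb3l3, described below, were called. In organoids Ppp1r15a measured 12.4 and 7.10 RPKM (-4.72, 0.00942 against fresh cells), 28.5-fold lower than fresh cells. The other calls, Ern2 (IRE1 beta, listed at 0 in both 12 h libraries, log2 change -1.31) and Creb3l3 (a membrane-bound factor of liver and gut, -1.99 at 12 h and -2.00 in organoids), reached 1 RPKM in the fresh libraries alone. Both passed the filter on low values through that group and so had to differ, and the summed hepatocyte markers were likewise highest in fresh cells. The sensors Eif2ak3 (PERK) and Atf6 did not pass, with log2 changes in organoids of -2.14 (adjusted p = 0.0812) and -1.65 (0.0711), nor did Ern1 (IRE1 alpha).

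Among amino acid transporters, 4 of 8 tested fell in organoids, beside 4.94% of all genes, with a list median of -1.71. Those 4 include Slc7a3, which passed the filter on low values through fresh cells alone. At 12 h 1 fell, beside 3.72% of all genes, and 3 were called lower with centred libraries, with a median of -0.98. With a pseudocount of 0.1 or 0.5, no filter, no variance trend, a replicate block or equal summed RPKM, limma called 0 there. In the main run 5 of 8 had an unadjusted p under 0.05 at 12 h. None rose in either comparison. Slc3a2, the heavy chain shared by several transporters, measured 76.1 and 47.2 RPKM in organoids, against 411.5 and 445.2 RPKM in fresh cells (log2 change -2.81, adjusted p = 0.0119). Its partner Slc7a5 (LAT1) measured 13.6 and 14.1 RPKM in organoids, against 42.7 and 61.4 RPKM in fresh cells (-1.82, 0.0275). Slc7a1 (CAT1, for cationic amino acids) measured 2.98 and 5.07 RPKM in organoids, against 39.0 and 35.2 RPKM in fresh cells (-2.95, 0.0139). It was also the gene that fell at 12 h, at 7.96 and 11.6 RPKM (-1.84, 0.0499). That call was lost with a pseudocount of 0.1 (limma adjusted p = 0.0564) or 0.5 (0.0520), no filter (0.0828) and no variance trend (0.0566). The call was also lost with a replicate block (0.0569), at equal summed RPKM (0.0826) and without the 24 h library. Slc7a3 (-1.46, 0.0360) reached 1 RPKM in fresh cells alone and had to differ.

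Genes of amino acid synthesis and one-carbon metabolism gave 2 lower of 14 tested in organoids, beside 4.94% of all genes, and 4 with quantile normalization, with a median of -0.41, or -0.81 without organoid replicate 2. At 12 h 1 was lower, beside 3.72% of all genes, and 3 with centred libraries or quantile normalization. With a pseudocount of 0.1 or 0.5, no filter, no variance trend, only the groups compared or equal summed RPKM, limma called 0. In the main run 3 of 14 had an unadjusted p under 0.05 at 12 h. The 12 h median was -0.30, 0.02 without 12 h replicate 2 and -0.17 without fresh replicate 1. Mthfd2, a mitochondrial folate enzyme, measured 5.80 and 15.6 RPKM in organoids, against 109.2 and 110.4 RPKM in fresh cells (log2 change -3.38, limma adjusted p = 0.0154). Gpt2, a mitochondrial alanine transaminase, measured 2.52 and 4.28 RPKM in organoids, against 23.6 and 21.8 RPKM in fresh cells (-2.46, 0.0177). At 12 h the gene that fell was Cbs, which makes cystathionine from homocysteine and is abundant in liver, at 5.97 and 0.0275 RPKM at 12 h, against 46.6 and 67.8 RPKM in fresh cells (-4.42, 0.0416). Its call was lost with a pseudocount of 0.1 (limma adjusted p = 0.0872) or 0.5 (0.0520), no filter (0.128) and no variance trend (0.0505). It was also lost with only the groups compared (0.0722) and at equal summed RPKM (0.0695). The hepatocyte markers moved the same way.

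Of other targets of ATF4 and CHOP, 7 of 16 tested fell in organoids, beside 4.94% of all genes, and 5 at 12 h, beside 3.72%, with none higher. Fitted changes were above 0 for 6 of the 16 in organoids and for 3 at 12 h. At 12 h 2 were called lower at equal summed RPKM and 0 with no filter on low values (limma, 7 of 16 at an unadjusted p under 0.05 with the filter). In organoids 2 were called lower with no filter. The organoid median was -1.32, but -0.28 without organoid replicate 2 and -0.81 without fresh replicate 2. The 12 h median was -0.86, and -0.43 without fresh replicate 2. Atf3, a stress-induced transcription factor, measured 7.25 and 16.1 RPKM in organoids, against 387.5 and 602.6 RPKM in fresh cells, 42.5-fold lower (log2 change -5.35, limma adjusted p = 0.00664). At 12 h it was already at 29.5 and 53.9 RPKM (-3.56, 0.0260). Sqstm1 (p62, an autophagy receptor) measured 166.2 and 187.3 RPKM in organoids, against 2315 and 2921 RPKM in fresh cells, 14.8-fold lower (-3.87, 0.00664). The summed hepatocyte markers were lower in the same libraries, and their part in these changes was not tested.

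Gdf15, a secreted stress cytokine, measured 3.63 and 17.2 RPKM in organoids, against 132.3 and 122.6 RPKM in fresh cells (-3.81, 0.0205). Atf5, a factor related to ATF4, measured 1.70 and 3.23 RPKM in organoids, against 17.9 and 27.2 RPKM in fresh cells (-2.77, 0.0276). The remaining calls in organoids were Cebpg, Nupr1 and Sesn2. At 12 h Sesn2, a sestrin that restrains mTORC1, measured 5.69 and 14.4 RPKM, against 93.4 and 93.1 RPKM in fresh cells (-3.21, 0.0366). Nupr1, a stress-induced nuclear protein, measured 19.4 and 14.4 RPKM at 12 h, against 137.5 and 68.4 RPKM in fresh cells (-2.47, 0.0438). Stc2, a secreted glycoprotein, measured 0.101 and 0.640 RPKM at 12 h, against 6.59 and 4.97 RPKM in fresh cells (-2.32, 0.0443), and its organoid values of 8.09 and 4.33 RPKM overlapped those of fresh cells. At equal summed RPKM the 12 h calls of Sesn2 (adjusted p = 0.0584), Nupr1 (0.0515) and Stc2 (0.0545) and the organoid calls of Cebpg (0.0578) and Sesn2 (0.0751) were lost.

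Of 20 cytosolic tRNA synthetases, 1 fell in organoids, a share close to the 4.94% called lower among all genes, with a median of -0.45. With centred libraries 4 were called lower, with quantile normalization 5 and at equal summed RPKM 0, and the median was 0.09 without organoid replicate 1 and -0.79 without replicate 2. That was Nars, the asparagine enzyme, at 61.7 and 126.8 RPKM in organoids, against 304.3 and 365.1 RPKM in fresh cells (log2 change -1.90, limma adjusted p = 0.0383). At 12 h 0 of 20 passed in limma (1 at an unadjusted p under 0.05), with a median of -0.02. Nars measured 187.9 and 201.3 RPKM at 12 h, against 304.3 and 365.1 RPKM in fresh cells, and the glycine enzyme Gars 132.8 and 110.5 RPKM at 12 h, against 166.1 and 155.3 RPKM in fresh cells.

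**Figure D4:**
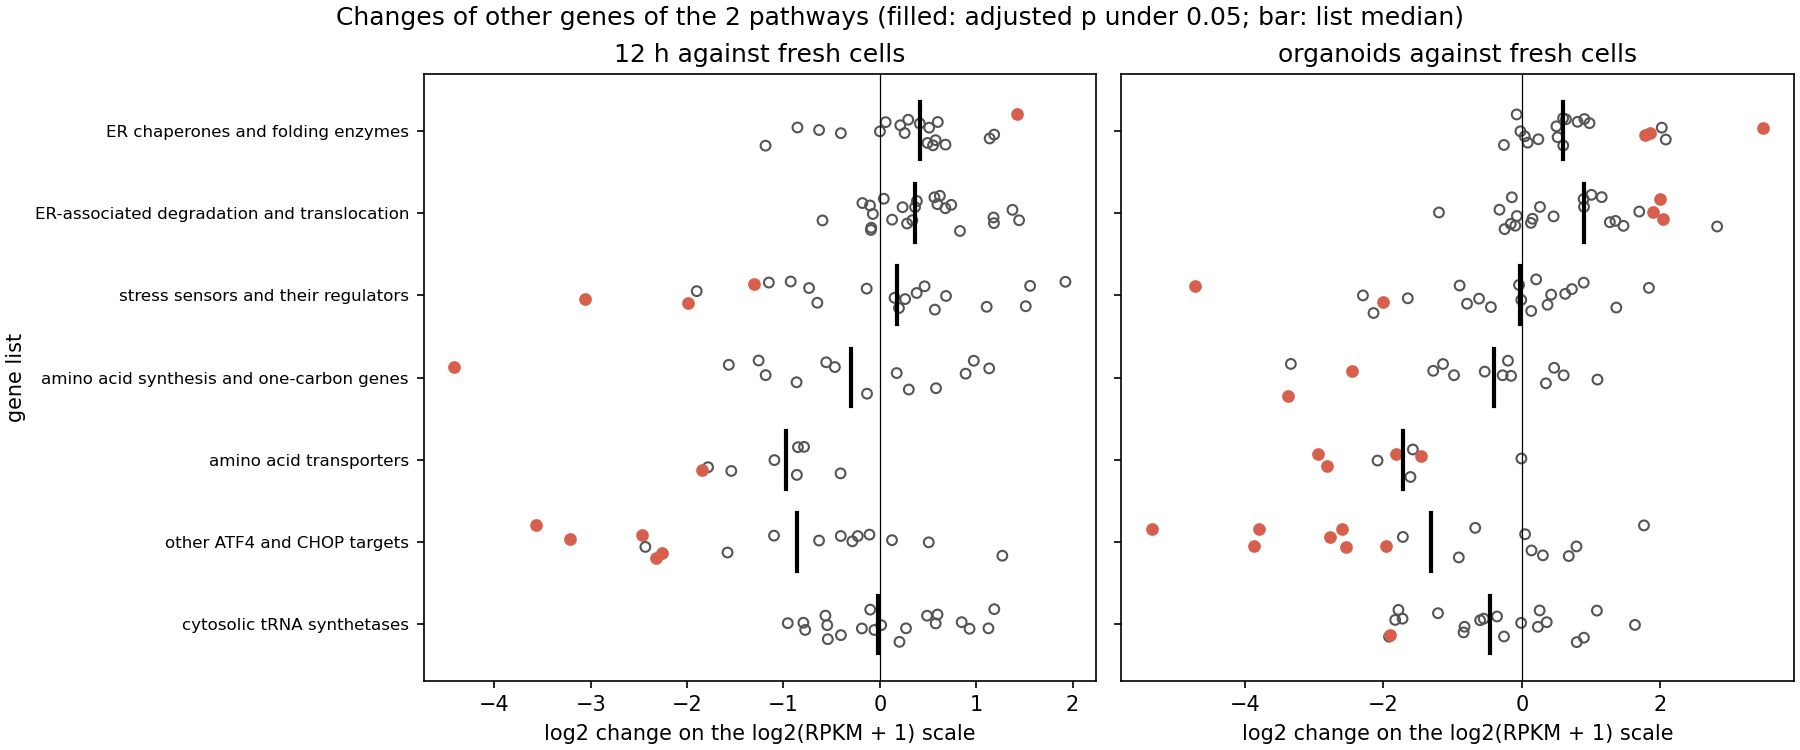
Fitted log2 change of every tested gene in the 7 pathway lists, for 12 h and organoids against the shared fresh libraries, with filled points where the limma adjusted p was under 0.05 and a bar at each list's median. The ER chaperone and degradation lists have medians of 0.60 and 0.89 in organoids, and the transporter and ATF4 target lists -1.71 and -1.32.

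Between organoids and 12 h, 0 genes of the 7 lists passed in limma, with 2 to 6 per list at an unadjusted p under 0.05. The most abundant genes of each list are therefore given as values. In the folding lists, P4hb (a protein disulfide isomerase) measured 3915 and 696.1 RPKM in organoids, against 423.6 and 510.4 RPKM at 12 h, and Pdia3 measured 446.8 and 485.6 RPKM in organoids, against 316.4 and 336.4 RPKM at 12 h. Ssr2 measured 254.6 and 259.7 RPKM in organoids, against 169.0 and 290.2 RPKM at 12 h, and Spcs1 280.6 and 125.1 RPKM in organoids, against 102.2 and 101.4 RPKM at 12 h. Organoid replicate 1 stood apart for P4hb.

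On the stress side, Slc3a2 measured 76.1 and 47.2 RPKM in organoids, against 133.8 and 160.2 RPKM at 12 h, and Sqstm1 166.2 and 187.3 RPKM in organoids, against 462.1 and 633.5 RPKM at 12 h. Both genes were lower in both organoid libraries. Ppp1r15a was also lower in both, at 12.4 and 7.10 RPKM in organoids, against 19.8 and 51.6 RPKM at 12 h, as was Nars, at 61.7 and 126.8 RPKM in organoids, against 187.9 and 201.3 RPKM at 12 h. Replicates overlapped for Phgdh, the first enzyme of serine synthesis, at 25.2 and 82.6 RPKM in organoids, against 36.6 and 60.8 RPKM at 12 h, and for Shmt2, Slc38a2, Eif2s1 and Eif4ebp1.

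List counts rested on few libraries. Without either fresh library or either 12 h library, no gene of the 7 lists passed at 12 h, and without either fresh library none passed in organoids against fresh cells. Without organoid replicate 1, the lists held 3 calls in organoids against fresh cells, 2 among ATF4 and CHOP targets and 1 among transporters. No named gene that passed changed sign under any setting tried.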

How the data were processed

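RNA-seq of 8 libraries of sorted mouse EpCAM+ liver cells was analysed. The authors deposited 1 RPKM value per gene and library. Per the labels' protocols, a column kit for small samples, Smart-seq2 cDNA and Nextera XT tagmentation were used, and the submitters' processing notes name GRCm38 and edgeR. Not given in the sources used here are the aligner, read counter, annotation, strandedness and any scaling factor. GENCODE M21 named 47310 of 47729 identifiers. In each library 88.6% to 92.3% of small values were whole multiples, within 0.01, of the value of 1 read. In a gene of 2 kb, 3 reads would be 0.0527 to 0.108 RPKM, a limit for counting error only, since PCR reads are not independent molecules.

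Genes at 1 RPKM or more in at least 2 libraries (12900) were tested on log2(RPKM + 1) with limma 3.58.1 in R 4.3.3, with a variance trend, all 5 groups in 1 fit (3 residual degrees of freedom) and Benjamini-Hochberg adjustment at 0.05. The procedure was tested on simulated data for 12 h against fresh cells only, with changes planted in the 12 h group. The 24 h library and the one titled 48h had no replicate and were compared as values. Tables and figures were made with Python 3.11.15, pandas 2.3.3, numpy 2.4.6 and matplotlib 3.10.9.

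The 10 genes, the 7 pathway lists and the tests were chosen with earlier results of these data known. All 10 genes are reported whatever their result. From each list up to 4 genes that passed are named, by size of change, or the 2 most abundant where none passed. Eif2ak3, Atf6 and Ern1 were named after their values were seen. The second ER stress element was added after the sequences had been read. Alternatives covered pseudocount, filter, scaling, variance model, samples in the fit, a replicate block and each replicate left out. Equal summed RPKM and leaving out the 24 h library or the one titled 48h were added after seeing the data.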

Additional observations from a re-analysis of the deposited data

Results flagged for a closer look

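The change of Trib3 from fresh cells differed between day 6 and 12 h by -3.25 on the log2 scale, which was marked because the difference itself passed a test (organoids against 12 h, limma adjusted p = 0.0302). Trib3 measured 8.03 and 3.49 RPKM in organoids, against 73.4 and 48.1 RPKM at 12 h, so it was lower in both organoid libraries. Both changes are relative to the same fresh libraries. The adjusted p was 0.0506 to 0.178 when any 1 of the 6 replicated libraries was left out.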

How the results depend on the processing

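Among 19 alternatives, Chac1, Herpud1 and Trib3 passed in 17 in organoids against fresh cells, Atf4 in 15, Dnajb9 in 13 and Hspa5 and Asns in 10 each. At 12 h Herpud1 passed in 16 and Chac1 in 15. Trib3 passed in 10 in organoids against 12 h. Genes called at 12 h numbered 423 with no filter, 545 with no variance trend, 1601 with library weights and 0 to 1082 with 1 replicate left out. In organoids against fresh cells they numbered 740 with no filter and 0 to 1418 with 1 replicate left out. In organoids against 12 h they numbered 418 with a pseudocount of 0.1, 151 with a filter at a mean of 5 RPKM, 28 with library weights, 111 at equal summed RPKM and 0 to 321 with 1 replicate left out. There, limma gave 0 with no filter (3379 at an unadjusted p under 0.05) and 0 with only the groups compared (1686 unadjusted).

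Of the 10 genes, 4 passed at 12 h with only the groups compared and 0 to 4 with 1 replicate left out. In organoids against fresh cells 3 passed with no filter, 4 with only the groups compared and 0 to 6 with 1 replicate left out. In organoids against 12 h, 3 passed with quantile normalization and 0 to 1 with 1 replicate left out. In that comparison limma gave 0 with no filter, with library weights and with only the groups compared (4 of the 10 at an unadjusted p under 0.05 each time).

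No gene that passed changed sign. Signs turned at 12 h for Hsp90b1 (-0.22 with centred libraries, -0.04 with quantile normalization) and Asns (-0.27 and -0.07). In organoids against fresh cells Ddit3 was at -0.05 with quantile normalization, -0.13 without fresh replicate 1, and between -1.34 and 1.85 without 1 or the other organoid library. In organoids against 12 h, leaving out organoid replicate 1 gave -0.09 for Xbp1, -0.93 for Dnajb9 and -1.95 for Ddit3, and leaving out replicate 2 gave 1.11, 0.24 and 1.24. The cause was not tested.

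The gap between the arms in fresh cells was 1.51 with quantile normalization and 2.02 by medians. At 24 h it was 2.91 and 2.35 with pseudocounts of 0.1 and 0.5, 1.58 with quantile normalization, 0.58 by medians and 2.48 at equal summed RPKM. In the library titled 48h it was 4.48 by medians. In organoids it was 3.14 and 3.08 with those pseudocounts, 2.86 with quantile normalization, 3.77 by medians and 3.10 at equal summed RPKM.

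The labels do not say whether replicate numbers pair the libraries. Same-numbered deviations correlated at 0.195, 0.224 and 0.018 over genes, and with no reference value these cannot decide it. With the replicate number as a block, 722, 1422 and 205 genes passed in the 3 comparisons, and 3, 7 and 1 of the 10, Atf4 being added at 12 h (adjusted p = 0.0468).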

Other observations

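Organoid replicate 1 stood apart from replicate 2 for some folding enzymes, named after their values were seen. P4hb measured 3915 RPKM in organoid replicate 1 and 696.1 RPKM in replicate 2. Ero1l, the oxidase that recharges protein disulfide isomerases, measured 224.5 RPKM in replicate 1 and 8.02 RPKM in replicate 2. Among the other listed ER chaperones and folding enzymes, replicate 1 was higher for Pdia6, Sdf2l1, Ero1lb, Dnajc10 and Sil1. Replicate 1 was lower for Calr, Canx, Pdia3, Pdia4, Dnajc3, Dnajb11, Hyou1, Creld2, Manf, Ppib, Txndc5 and Uggt1. Of the 10 genes, Hspa5, Xbp1, Herpud1, Dnajb9, Ddit3 and Trib3 were higher in replicate 1, and Hsp90b1, Atf4, Asns and Chac1 lower. That library had the highest summed RPKM of the 8.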
